A study of Homo sapiens with 4 samples.

Results

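The PIAS SUMO ligases and the SENP SUMO proteases are the enzymes that help attach the small protein SUMO to other proteins and that take it off again, and their mRNAs were followed here through inhibition of NEDDylation in prostate cancer cells. The members are the 10 rows of the expression table named PIAS1, PIAS2, PIAS3, PIAS4, SENP1, SENP2, SENP3, SENP5, SENP6 and SENP7, that is 4 ligases and 6 proteases of 43622 genes. All 10 passed the filter on low values that left 19932 genes for testing. They were chosen by name, with earlier results of these data known.

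RNA-seq was made from PC3, an established human prostate adenocarcinoma line, under 4 conditions with 3 libraries each. Ctrl is PC3 (genotype wt) with the vehicle DMSO, MLN is PC3 with 1 µM MLN4924, shARF is PC3 carrying a short hairpin RNA against p14ARF (Sh ARF) with DMSO, and Both is the Sh ARF line with 1 µM MLN4924. Treatments lasted 3 days. MLN4924 (Pevonedistat) inhibits the enzyme that activates NEDD8, so that NEDD8 is no longer passed on to its targets. The sample labels are followed here, but the series text gives the dose as 1 mM and calls the line a knockout. The Sh ARF line was stably transduced and selected with hygromycin, and no hairpin of another target was named for the cells of Ctrl and MLN, so the effect of the hairpin cannot be told apart from that of transduction and selection. One sample is described for each condition, and nothing says whether its 3 libraries came from separate cultures, so the p-values measure only the spread between these libraries.

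In SUMOylation SUMO is first activated by SAE1 with UBA2, and a ligase helps to place it on a lysine of the target. The PIAS ligases share a SP-RING domain and were first described as inhibitors of activated STAT factors. The SENP proteases cut SUMO from its targets and some also mature the SUMO precursor. SENP1 and SENP2 act on all common SUMO forms, SENP3 and SENP5 are nucleolar and prefer SUMO2 and SUMO3, and SENP6 and SENP7 trim chains of SUMO2 and SUMO3. p14ARF is a nucleolar tumor suppressor that promotes SUMOylation of its partners. The study cites earlier work in which p19Arf, another ARF protein, brought about the degradation of SENP3 protein.

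The values are TPM (transcripts per 1000000), which are scaled per transcript length and sum to 1000000 in each library, so they give shares of the mRNA pool. A fall of a gene cannot be told apart from a rise of the rest of the pool. Neither the number of cells nor the amount of RNA per cell can be read from them. CDKN2A, the gene of p14ARF, stood at 183 ± 6.49 TPM in Ctrl and 59.3 ± 1.47 TPM in shARF (mean ± SD, n = 3 here and throughout), and at 118 ± 16.4 TPM in MLN and 47.5 ± 6.40 TPM in Both. Its row also covers p16INK4A, so it checks the labels only in sum. The epithelial markers KRT8, KRT18 and EPCAM were detected in every library, and KLK3, the gene of prostate-specific antigen, was listed at 0. Of the markers of other cell types, PTPRC did not exceed 0.322 TPM, whereas PECAM1 ranged from 0.132 to 12.4 TPM with its highest values in Ctrl, and COL1A1 from 3.56 to 19.7 TPM with its highest values in MLN. The part of these markers in the results below was not tested.

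The upstream sequence of the members was available for 8 of the 10 in the RefSeq promoter table (build GRCh38.p14), in 12 windows since some genes have several start sites. The 250 bases upstream of the start sites of SENP6, PIAS4 and SENP5 are shown because SENP6 had the largest fall of the members with MLN4924, PIAS4 the largest rise in wild type PC3 and SENP5 the largest rise in the Sh ARF line. Capitals mark every match, on either strand, to GGGCGG, known as the GC box, to the CCAAT box, to the E-box letters CACGTG or to the ETS letters CCGGAAG. The windows lie at chr6:75601630-75601879, chr19:4007486-4007735 and chr3:196867670-196867919, all on the plus strand.
SENP6: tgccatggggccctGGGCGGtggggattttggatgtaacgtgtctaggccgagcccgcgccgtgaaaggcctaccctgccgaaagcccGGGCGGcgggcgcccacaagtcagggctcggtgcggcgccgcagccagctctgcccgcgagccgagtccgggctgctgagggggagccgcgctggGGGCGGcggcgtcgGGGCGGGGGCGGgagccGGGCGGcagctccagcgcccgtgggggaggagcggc
PIAS4: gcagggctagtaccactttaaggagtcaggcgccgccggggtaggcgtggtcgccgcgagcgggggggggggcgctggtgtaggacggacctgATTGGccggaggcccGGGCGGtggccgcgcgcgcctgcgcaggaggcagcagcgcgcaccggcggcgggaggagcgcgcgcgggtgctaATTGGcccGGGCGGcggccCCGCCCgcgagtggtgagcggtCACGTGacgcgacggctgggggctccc
SENP5: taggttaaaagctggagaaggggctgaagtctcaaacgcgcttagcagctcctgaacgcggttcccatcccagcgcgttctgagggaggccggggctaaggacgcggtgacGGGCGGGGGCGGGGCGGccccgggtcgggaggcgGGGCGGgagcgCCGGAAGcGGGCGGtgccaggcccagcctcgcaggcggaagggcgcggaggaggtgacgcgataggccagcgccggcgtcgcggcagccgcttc
SENP6 held 6 GC boxes and none of the other motifs, its nearest GC box starting at -36 from the start site. PIAS4 held 3 GC boxes, 2 CCAAT boxes at -157 and -68 and an E-box at -27. SENP5 held 5 GC boxes, those at -133 and -128 sharing a base, and an ETS motif at -94. Each of the 8 members with a window had a GC box in at least 1 of its windows, 8 of the 12 windows in all, where 42.6% of the 35116 windows of the table held one. The GC content of these 3 windows was 77.2%, 77.6% and 72.8%, against a median of 58.0% over the table. A match is a string of letters and no evidence that a factor binds there, and members that moved in opposite directions shared the GC box.

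Among the PIAS ligases, PIAS3, first described as an inhibitor of STAT3, was the most abundant in every condition. PIAS3 was at 88.7, 73.7 and 73.8 TPM in the Ctrl libraries, 52.4, 60.1 and 61.1 TPM in MLN, 71.4, 71.4 and 76.1 TPM in shARF and 47.4, 48.5 and 41.5 TPM in Both. PIAS4 was at 27.0, 22.1 and 23.6 TPM in Ctrl, 32.4, 37.1 and 39.0 TPM in MLN, 21.9, 22.8 and 26.6 TPM in shARF and 29.9, 30.7 and 31.2 TPM in Both. PIAS3 was therefore lower, and PIAS4 higher, in every library with MLN4924 than in any library of the same line without it. Such a separation of libraries was common and does not set a member apart. Of the 19932 genes tested, 6899 were higher and 6461 lower in every MLN library than in any Ctrl library. In Both against shARF the same held for 6092 and 7282 genes. PIAS1 was at 13.1, 11.5 and 11.7 TPM in Ctrl, 7.55, 8.68 and 9.14 TPM in MLN, 16.5, 15.3 and 14.2 TPM in shARF and 11.3, 11.7 and 10.5 TPM in Both. PIAS2 was the lowest of the ligases, at 4.81, 4.19 and 4.09 TPM in Ctrl, 2.71, 3.35 and 3.18 TPM in MLN, 3.92, 3.59 and 3.50 TPM in shARF and 3.38, 3.50 and 3.15 TPM in Both. For PIAS1 the treated libraries lay below the untreated ones of the same line in both lines. The same held for PIAS2, but the highest library of Both and the lowest of shARF both round to 3.50 TPM.

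SENP1 and SENP2 moved in opposite directions in MLN against Ctrl, but both were higher in shARF than in Ctrl. SENP1 was at 19.2, 19.5 and 19.4 TPM in Ctrl, 13.5, 12.6 and 14.6 TPM in MLN, 24.2, 24.8 and 24.6 TPM in shARF and 21.2, 22.1 and 20.3 TPM in Both. SENP2 was at 37.2, 34.8 and 38.1 TPM in Ctrl, 43.1, 43.1 and 42.8 TPM in MLN, 44.3, 43.7 and 43.9 TPM in shARF and 43.5, 48.6 and 42.7 TPM in Both. For SENP1 none of the 4 conditions overlapped with another, shARF being highest and MLN lowest. For SENP2 Ctrl stood below the other 3 conditions, which lay within 42.7 to 48.6 TPM.

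The nucleolar pair were both more abundant with MLN4924. SENP3 was at 112, 110.4 and 112 TPM in Ctrl, 140.4, 166 and 171 TPM in MLN, 109, 99.2 and 112 TPM in shARF and 128, 124 and 117 TPM in Both. One MLN library lay well below the other two, and the Both libraries lay between those of shARF and of MLN. SENP5 was at 24.5, 23.4 and 23.1 TPM in Ctrl, 36.7, 33.2 and 30.5 TPM in MLN, 24.3, 23.8 and 23.1 TPM in shARF and 36.4, 38.7 and 36.0 TPM in Both, with no overlap between treated and untreated libraries. SENP3 overlaps the read-through gene SENP3-EIF4A1 on the same strand over 8683 bases (GENCODE v44), which was listed at no more than 1.30 TPM.

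Of the chain-trimming pair, SENP6 was at 20.5, 19.2 and 21.6 TPM in Ctrl, 10.8, 9.46 and 10.9 TPM in MLN, 20.4, 18.9 and 21.1 TPM in shARF and 11.0, 13.4 and 11.8 TPM in Both. Every treated library was far below every untreated one, and Ctrl and shARF overlapped. SENP7 was at 6.38, 5.80 and 6.46 TPM in Ctrl, 5.98, 5.03 and 5.89 TPM in MLN, 5.96, 5.47 and 5.21 TPM in shARF and 6.77, 8.00 and 7.12 TPM in Both. The SENP7 libraries of Both were above those of every other condition, which overlapped among themselves.

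Ordered by level per length, SENP3 led in every condition, from 107 ± 6.50 TPM in shARF to 159 ± 16.4 TPM in MLN, followed by PIAS3 and SENP2. PIAS1, SENP7 and PIAS2 took the last 3 places in every condition. In Ctrl the order after SENP2 (36.7 ± 1.72 TPM) was PIAS4, SENP5, SENP6, SENP1, PIAS1, SENP7 and PIAS2, and the libraries of PIAS4 and SENP5 overlapped, as did those of SENP6 and SENP1. In MLN the libraries of PIAS4 and SENP5 overlapped as well. In shARF SENP1 moved up to the fourth place, where it overlapped with PIAS4, and PIAS4 overlapped with SENP5. In Both PIAS3 (45.8 ± 3.74 TPM) overlapped with SENP2 (44.9 ± 3.23 TPM), and SENP6 with PIAS1.

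The summed SENP mRNA was 218 ± 4.09 TPM in Ctrl, 265 ± 13.1 TPM in MLN, 224 ± 7.40 TPM in shARF and 245 ± 10.1 TPM in Both. The summed PIAS mRNA was 119 ± 12.2, 106 ± 9.28, 116 ± 4.01 and 90.9 ± 4.09 TPM in the same order. SENP3 alone made up 51.2% ± 0.580 of the SENP sum in Ctrl and 59.9% ± 3.33 in MLN, but 47.4% ± 1.37 in shARF and 50.1% ± 1.61 in Both. The share of SENP6 went from 9.38% ± 0.411 in Ctrl to 3.93% ± 0.407 in MLN and from 8.97% ± 0.207 in shARF to 4.92% ± 0.418 in Both. Among the ligases, PIAS3 held 65.9% ± 0.627 of the PIAS sum in Ctrl and 54.9% ± 0.425 in MLN, and PIAS4 held 20.3% ± 0.530 and 34.2% ± 0.396. In the Sh ARF line PIAS3 held 63.0% ± 0.256 without and 50.3% ± 1.96 with MLN4924, and PIAS4 20.5% ± 1.42 and 33.7% ± 2.10.

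The comparison of MLN with Ctrl asks what MLN4924 did to these genes in PC3 cells with p14ARF. Of the 10 members, 4 rose and 5 fell (limma on log2(TPM + 0.1), adjusted over all genes tested), where 32.2% of all genes tested rose and 29.4% fell. The median log2 fold change was -0.29 over the members and 0.05 over all genes tested. Given the wide response of the transcriptome, this count does not set the members apart. All fold changes are on the log2(TPM + 0.1) scale, with the standard error (SE). SENP6 fell most, by 0.97 on the log2 scale (SE 0.08, adjusted p = 0.000155), and 65.7% of the genes tested had a smaller change than SENP6. SENP1 fell by 0.52 (SE 0.07, adjusted p = 0.000988). The ligases PIAS1, PIAS2 and PIAS3 fell by 0.52 (SE 0.10, adjusted p = 0.00446), 0.49 (SE 0.13, adjusted p = 0.0153) and 0.44 (SE 0.10, adjusted p = 0.00895). PIAS4 was the ligase that rose, by 0.58 (SE 0.10, adjusted p = 0.00340). Among the proteases SENP3 rose by 0.51 (SE 0.08, adjusted p = 0.00207), SENP5 by 0.50 (SE 0.08, adjusted p = 0.00186) and SENP2 by 0.23 (SE 0.05, adjusted p = 0.00683). SENP7 differed by -0.14 (95% interval -0.39 to 0.11, adjusted p = 0.271). These 9 calls held without any one of the 6 libraries.

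The comparison of Both with shARF asks the same in cells with less p14ARF, and it shares no library with the comparison above. Here 4 members rose and 4 fell, where 28.3% of all genes tested rose and 32.8% fell. The median log2 fold change was -0.05 over the members and -0.04 over all genes tested. SENP6 fell by 0.74 (SE 0.09, adjusted p = 0.000668) and PIAS3 by 0.67 (SE 0.07, adjusted p = 0.000343). PIAS1 fell by 0.46 (SE 0.08, adjusted p = 0.00294) and SENP1 by 0.21 (SE 0.05, adjusted p = 0.00839). After median-of-ratios scaling the fall of SENP1 was smaller, at -0.12 (adjusted p = 0.0380). These 4 genes were also among the 5 called lower in PC3. SENP5 rose most, by 0.64 (SE 0.05, adjusted p = 7.55e-05), followed by SENP7 at 0.39 (SE 0.09, adjusted p = 0.0133) and PIAS4 at 0.37 (SE 0.08, adjusted p = 0.00751). SENP3 rose by 0.21 (SE 0.06, adjusted p = 0.0254), but that call was lost without Both library 3 (0.20, adjusted p = 0.0722), Both library 2 (0.18, adjusted p = 0.0818), shARF library 1 (0.22, adjusted p = 0.0567) or shARF library 3 (0.16, adjusted p = 0.0577). PIAS2 differed by -0.13 (95% interval -0.37 to 0.11, adjusted p = 0.287) and SENP2 by 0.03 (95% interval -0.11 to 0.17, adjusted p = 0.682).

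In shARF against Ctrl, the comparison of the untreated lines, PIAS1, SENP1 and SENP2 rose and none fell (adjusted p below 0.05, limma, and also none fell at an unadjusted p below 0.05). Of all genes tested 21% rose and 20.4% fell. With so few members, these counts do not set the members apart from genes at large. SENP1 rose by 0.34 (SE 0.02, adjusted p = 0.000538) and SENP2 by 0.26 (SE 0.04, adjusted p = 0.00507). PIAS1 rose by 0.34 (SE 0.08, adjusted p = 0.0225), a call that was lost without Ctrl library 3 (0.32, adjusted p = 0.0756), Ctrl library 2 (0.31, adjusted p = 0.0697), shARF library 1 (0.28, adjusted p = 0.0641) or shARF library 3 (0.34, adjusted p = 0.0690). The other 7 members missed the threshold. SENP5 and SENP6 differed by 0.00 and -0.02, with 95% intervals of -0.09 to 0.10 and -0.18 to 0.14. SENP3 differed by -0.07 (95% interval -0.19 to 0.06), PIAS3 by -0.10 (-0.32 to 0.11) and PIAS4 by -0.03 (-0.30 to 0.24). PIAS2 differed by -0.24 (-0.49 to 0.01) and SENP7 by -0.16 (-0.37 to 0.04).

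Both against MLN compares the 2 lines under MLN4924, and shares its MLN libraries with MLN against Ctrl and its Both libraries with Both against shARF. Here 3 members were higher and 2 lower in Both, where 11.8% of all genes tested were higher and 20.6% lower. Of all calls in this comparison 36.4% were higher as deposited and 51.4% after scaling by median-of-ratios, which moved the median of all genes tested by 0.08. SENP1 was higher in Both by 0.64 (SE 0.08, adjusted p = 0.00250) and kept that call without any one library. PIAS1 was higher by 0.40 (SE 0.10, adjusted p = 0.0242) and SENP7 by 0.37 (SE 0.11, adjusted p = 0.0476), and SENP3 differed by -0.37 (SE 0.09, adjusted p = 0.0238) and PIAS3 by -0.34 (SE 0.09, adjusted p = 0.0337). These last 4 calls were each lost when single libraries were left out. PIAS1 lost its call without MLN library 2 (0.42, adjusted p = 0.0670), Both library 3 (0.36, adjusted p = 0.0745) or Both library 2 (0.39, adjusted p = 0.0813). SENP7 lost it without any one of the 6 libraries (0.29 to 0.42, adjusted p from 0.0677 to 0.125). SENP3 and PIAS3 lost it without any one library except MLN library 1, SENP3 at -0.40 to -0.32 (adjusted p from 0.0610 to 0.0870) and PIAS3 at -0.38 to -0.27 (adjusted p from 0.0562 to 0.112). PIAS4 differed by -0.23 (adjusted p = 0.0658) and was called at -0.31 (adjusted p = 0.0130) without MLN library 1. SENP6, SENP5, PIAS2 and SENP2 differed by 0.21, 0.15, 0.12 and 0.06 (adjusted p from 0.170 to 0.498).

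Whether the response to MLN4924 depended on the line was tested over the 12 libraries as the difference between Both against shARF and MLN against Ctrl. This difference was called (limma, adjusted p below 0.05) as positive for 2 members and as negative for 1. Of all genes tested, 11.2% were called positive and 17.1% negative. Of all calls 39.5% were positive as deposited and 53.5% after median-of-ratios scaling, which moved the median of all genes by 0.09. SENP7 had the largest difference, 0.53 (SE 0.15, adjusted p = 0.0167): it differed by -0.14 in PC3 and rose by 0.39 in the Sh ARF line. Its call held in the 19 alternatives, at 0.45 to 0.63. SENP1 fell by less in the Sh ARF line, the difference being 0.30 (SE 0.09, adjusted p = 0.0250), and lost the call without MLN library 2 (0.25, adjusted p = 0.0581), Both library 3 (0.27, adjusted p = 0.0501), Ctrl library 3 (0.30, adjusted p = 0.0508) or shARF library 1 (0.29, adjusted p = 0.0597). For SENP3 the rise was smaller in the Sh ARF line, the difference being -0.30 (SE 0.11, adjusted p = 0.0493). That call was lost in 15 of 19 alternatives, among them median-of-ratios scaling (-0.20, adjusted p = 0.108) and every library left out except MLN library 1 and shARF library 3 (-0.33 to -0.25, adjusted p from 0.0568 to 0.113). For the other 7 members the difference did not pass the threshold, with values from -0.23 for PIAS3 to 0.36 for PIAS2 (95% intervals -0.51 to 0.04 and 0.00 to 0.72), and median-of-ratios scaling brought PIAS2 (0.46, adjusted p = 0.0357) and SENP6 (0.33, adjusted p = 0.0499) past it. SENP2 differed by -0.20 (adjusted p = 0.0880) and passed it without Both library 3 (-0.26, adjusted p = 0.0183).

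Ratios between members within a library do not depend on how libraries were scaled. SENP6 over SENP7 was 3.22, 3.30 and 3.35 in Ctrl, 1.81, 1.88 and 1.85 in MLN, 3.43, 3.46 and 4.04 in shARF and 1.62, 1.68 and 1.66 in Both, so this ratio of the chain-trimming pair was lower in every treated library. PIAS3 over PIAS4 was 3.25 ± 0.110 in Ctrl against 1.60 ± 0.0305 in MLN, and 3.08 ± 0.197 in shARF against 1.50 ± 0.146 in Both, again with no overlap between treated and untreated libraries. SENP1 over SENP2 was 0.529 ± 0.0286 in Ctrl against 0.315 ± 0.0250 in MLN, and 0.559 ± 0.0124 in shARF against 0.472 ± 0.0168 in Both. SENP3 over SENP5 was 4.72 ± 0.134 in Ctrl and 4.81 ± 0.902 in MLN, which overlapped, but 4.50 ± 0.337 in shARF and 3.32 ± 0.168 in Both, which did not. With 3 libraries against 3 the exact two-sided permutation test cannot go below p = 0.1, the value that 11 of the 16 ratio comparisons reached (Benjamini-Hochberg adjusted over the 16, 0.145).

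Genes that overlap a member on the opposite strand were read with their own levels, since strandedness of the counting is not given in the sources used here. PFKM overlaps SENP1 over 941 bases and was at 80.2 ± 5.27 TPM in Ctrl, 39.9 ± 3.47 TPM in MLN, 108 ± 6.81 TPM in shARF and 34.8 ± 0.635 TPM in Both, so it moved in the direction of SENP1 in each of MLN against Ctrl, Both against shARF and shARF against Ctrl. In Both it was below MLN, where SENP1 was above it. NUDT17 overlaps PIAS3 over 433 bases and was higher with MLN4924 (15.2 ± 0.342 TPM in Both against 9.68 ± 0.581 TPM in shARF), opposite to PIAS3. CALML4 overlaps PIAS1 over 7899 bases and did not exceed 3.70 TPM. KATNAL2 overlaps PIAS2 over 2669 bases and did not exceed 1.18 TPM, where PIAS2 itself was at 2.71 to 4.81 TPM. The other genes opposite a member were at 0 TPM or had no values. The part of these reads in the members' values was not tested.

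Of the other genes of the pathway, the 7 of the SUMO core (SUMO itself and the enzymes that activate and conjugate it) split in MLN against Ctrl into 2 that rose and 3 that fell, with a median of -0.05. Of all genes tested, 32.2% rose and 29.4% fell in MLN against Ctrl, and 28.3% rose and 32.8% fell in Both against shARF. SUMO3 fell by 0.90 (SE 0.06) in MLN against Ctrl, and SAE1, a subunit of the activating enzyme, by 0.53 (SE 0.12). In Both against shARF 1 rose and 4 fell (median -0.35), SAE1 by 0.99 (SE 0.08) and SUMO3 by 0.85 (SE 0.04). Of 12 other ligases and cofactors 2 rose and 5 fell in MLN against Ctrl (median -0.09), and 3 rose and 4 fell in Both against shARF (median -0.10). ZMIZ1, a PIAS-like protein with a SP-RING domain, fell by 1.38 (SE 0.13) and 1.18 (SE 0.06) in these comparisons, ZMIZ2 by 0.75 (SE 0.09) and 0.72 (SE 0.06), and UHRF2 fell by 0.80 (SE 0.07) in PC3 but differed by -0.10 (SE 0.06) in the Sh ARF line. UHRF2 was already lower without MLN4924 in that line, at 10.6 ± 0.0627 TPM in shARF against 22.8 ± 1.76 TPM in Ctrl (log2 difference -1.10, SE 0.06, adjusted p = 0.000274), below its 12.9 to 13.2 TPM in MLN. Counting only the PIAS and ZMIZ genes, PIAS1, PIAS2, PIAS3, ZMIZ1 and ZMIZ2 fell in PC3, and PIAS4 rose.

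Among the 3 deSUMOylases outside the SENP family, DESI2 rose by 0.24 (SE 0.04) in MLN against Ctrl and USPL1 fell by 0.31 (SE 0.09). Both SUMO-targeted ubiquitin ligases, RNF4 and RNF111, missed the threshold in that comparison, and RNF111 rose by 0.56 (SE 0.09) in Both against shARF. Of 6 nucleolar partners of SENP3, 2 rose and 3 fell in MLN against Ctrl (median -0.32), and 1 rose and 4 fell in Both against shARF (median -0.79). The shares of all genes tested that rose or fell in these comparisons are those given beside the SUMO core. NPM1, a nucleolar substrate of SENP3, fell by 0.97 (SE 0.07) in PC3, where SENP3 rose, MDN1 fell by 0.68 (SE 0.11) and PELP1 rose by 0.68 (SE 0.14). SENP8, the member of the SENP family that acts on NEDD8 and not on SUMO, was at 2.68, 2.75 and 2.46 TPM in Ctrl and 2.03, 1.56 and 1.51 TPM in MLN, and fell by 0.61 (SE 0.16, adjusted p = 0.0151). In the Sh ARF line SENP8 was at 3.30, 3.07 and 2.47 TPM without and 2.75, 2.37 and 2.42 TPM with MLN4924, a difference of -0.22 (adjusted p = 0.247). STAT3 did not exceed 0.0355 TPM and was not tested.

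In shARF against Ctrl, 4 of the SUMO core rose and 1 fell (median 0.37), 3 of the other ligases rose and 6 fell (median -0.22), and 5 of the 6 SENP3 partners rose (median 0.34), where the median of all genes tested was 0.00. In that comparison 21% of all genes tested rose and 20.4% fell. In Both against MLN 2 of the SUMO core were higher, 1 other ligase was higher and 4 were lower, and SENP8 was higher by 0.55 (SE 0.16, adjusted p = 0.0463). There 11.8% of all genes tested were higher in Both and 20.6% lower. The lists were not tested as sets.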

How the data were processed

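RNA-seq values of PC3 cells in 4 conditions were used as deposited. Per the study's methods, the authors trimmed adapters, aligned reads to hg38 with an Ensembl annotation in CLC Genomics Workbench, and ran DESeq2 on read counts that were not used here. The deposited values are TPM for 43622 genes in 12 libraries, and each column sums to 1000000. TPM keeps no depth, so the depth of each library is unknown here. Libraries were assigned to conditions by their column names, and no column was left without a sample (0 columns).

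The 19932 genes whose mean over 12 libraries reached 0.1 TPM were tested as log2(TPM + 0.1) with limma 3.58.1 in R 4.3.3 (lmFit, eBayes with trend). P-values were adjusted over all of them (Benjamini-Hochberg), with calls at an adjusted p of 0.05 without a fold cutoff. Pairs of conditions were fitted to their 6 libraries and the difference between responses to all 12. Fits were tested on simulated data. Ratios were compared by exact permutation (scipy 1.17.1). The alternatives were a pseudocount of 1 or 0.01, a filter at 1 TPM or none, median-of-ratios scaling, no trend, each library left out, a replicate block and 1 fit for all libraries. Deviations of libraries with the same column number correlated at -0.15 to 0.06. Whether the numbers pair the libraries is not stated, and these correlations between groups of 3 libraries cannot decide it.

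All members were named in every comparison, with CDKN2A, SENP8 and, in each list, up to 3 genes with the largest change in MLN against Ctrl and up to 3 with the largest difference between responses among those called. Some genes of this rule are not reported here and stay in the counts. Members and lists were chosen with earlier results of these data known. Coordinates are from GENCODE v44 (GRCh38), promoter sequences from RefSeq (GRCh38.p14). Motifs were searched on both strands of the 250 bases before each start, also for the CRE motif (TGACGT, 7.10% of windows), the E2F motif (TTTNNCGC, 5.92%) and an antioxidant response element (TGACNNNGC, 10.9%). An ETS motif stood in 8.52% of windows, an E-box in 6.34% and a CCAAT box in 32.0%. Among the 12 member windows the CRE motif and the antioxidant response element had 0 matches and the E2F motif stood in 2.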

Additional observations from a re-analysis of the deposited data

Results flagged for a closer look

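The responses to MLN4924 differed between the Sh ARF line and PC3 by the test over 12 libraries for SENP7 (0.53 on the log2 scale), SENP1 (0.30) and SENP3 (-0.30), as described above, with the call of SENP3 the least stable. Of the other SUMO pathway genes, the difference was positive for UHRF2 (0.70), RNF111 (0.49) and DESI2 (0.47). It was negative for WDR18 (-0.66), TRIM28 (-0.55), SAE1 (-0.47), UBA2 (-0.32), DESI1 (-0.31) and LAS1L (-0.28). Adjusted p ranged from 0.000316 for UHRF2 to 0.0493 for SENP3. Groups of 3 libraries were too small to test for single libraries that stand apart.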

How the results depend on the processing

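Over 50 member values (10 members in 5 comparisons), 29 kept their side of the threshold in all alternatives, and none that was called on either side changed sign. Of 28 calls 11 were never lost. Whether the column numbers pair the libraries is unknown. A replicate block on these numbers took the members called from 9 to 2 in MLN against Ctrl. In shARF against Ctrl it took them from 3 to 0. Each of these comparisons shares only 2 numbers, so the block leaves little from which to estimate the spread. The loss of calls therefore cannot be read as an effect of pairing. In MLN against Ctrl every member kept its direction with the block. The block could not be fitted to Both against shARF or Both against MLN, which share 1 number. In Both against MLN 5 members were called, 1 without a filter and 3 without the trend, and 1 to 5 with a library left out, and the other pathway genes called went from 10 to between 4 and 8. For the difference between responses, leaving out a library gave 1 to 3 members in place of 3 and 6 to 13 of the other pathway genes in place of 12. The causes were not tested. Without read counts, how far depth limits the low members, such as PIAS2 and SENP7, is unknown.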
